A study of Drosophila melanogaster with 19 samples.

Results

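Head-to-head gene pairs are neighbouring genes that are read away from each other, with their transcription start sites (TSS) close together. The pairs described here are 1362 of 1722 such neighbours in the Drosophila melanogaster table whose TSS lay at most 500 bp apart. Each pair has a gene on the R strand, at the outermost TSS of its listed transcripts, and the next F-strand gene to its right. In the 1362 pairs both genes reached 1 FPKM (fragments scaled to transcript length and to mapped fragments) in at least 2 libraries. Another 180 pairs had 1 such gene and 180 had none, and these were not compared. The pairs hold 2674 of the 7835 genes tested, or 34.1%.

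RNA was sequenced from S2R+ cells, a line from Drosophila embryos with blood-cell features, kept at 25 °C and given double-stranded RNA (dsRNA) on each of 4 days. Cells received dsRNA to mip40 (2 libraries), mip120 (2), mip130 (2) or E2F2 (1), and control cells received dsRNA to GFP (2), a jellyfish gene that flies lack. All groups thus carried a dsRNA treatment and differ in its target. Chromatin samples and naked DNA of the same study were not analysed here.

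Compact genomes such as that of the fly place many genes head to head, so that a single short stretch of DNA serves as the promoter region of both. A promoter of this kind can be read in both directions by separate polymerase complexes, and the partners may or may not share regulation. dREAM joins E2F2, a retinoblastoma-family protein, Myb and the Myb-interacting proteins Mip40, Mip120 and Mip130, binds near many TSS, and keeps genes of other cell types and some cell cycle genes low. It contains subunits with and without DNA-binding ability, and head-to-head promoters are a place where its loss can be read on both sides of the same short interval.

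In each RNAi group the targeted transcript was the lowest of all groups. mip40 was at 1.45 and 1.12 FPKM in mip40 RNAi and 34.0 and 31.1 in GFP cells, mip130 at 5.0 and 4.46 in mip130 RNAi and 27.7 and 29.8 in GFP cells, and E2f2 at 2.54 in E2F2 RNAi and 25.8 and 27.9 in GFP cells. mip120, itself a head-to-head gene, was depleted least, with 28.5 and 30.0 FPKM in mip120 RNAi and 52.5 and 45.7 in GFP cells. Replicate libraries had Pearson r between 0.967 and 0.985 over the genes tested, and FPKM sums per library lay between 618451 and 774009. Of 12 blood-cell markers 10 reached 1 FPKM in both GFP libraries, although Hml, a defining marker of mature hemocytes, stayed at 0.358 and 0.434, while none of the muscle, fat body or gut markers looked up did so. The neuronal marker elav stood at 26.2 and 32.7 FPKM. The deposited values hold no read counts, so sequencing depth is unknown, and as the labels do not state whether the 2 libraries of a group stem from different cultures, each p refers to the spread among these libraries, which may be technical.

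The gap between the 2 TSS ran over 1 to 500 bp with a median of 242 bp, and in 326 pairs it was at most 100 bp. Chromosome 3R held 351 pairs, 2R 275, 3L 272, 2L 253, X 202 and chromosome 4 held 7. Of the 2674 genes, 2640 had a current name in the reference, 2609 of them protein coding and 31 not. Because genes can nest or share an upstream start, 100 pairs shared their F-strand gene with a second pair. The pairs' genes had a median of 23.6 FPKM in GFP cells, beside 20.0 FPKM for the other genes tested. Partners differed in mean level by a median of 1.48 on the log2(FPKM + 1) scale, beside 1.84 between neighbours in other arrangements. At the distance limit, 18 pairs had gaps within the last 10 bp inside it, and 13 divergent neighbours had gaps up to 10 bp beyond it. In 101 pairs 1 partner averaged below 1 FPKM in GFP cells, and in 8 pairs both did. The low genes of these pairs entered through other libraries and had to be higher there, so their rise alone is not read as a result. Nor is a difference from the partner that rests on such a rise, as with CG8316, CG8788, CG13148, Arp53D, CG3726 and piwi below. The same holds for CG3505, CG4213, Drsl6, hdm, c(2)M, CG14052 and CG2887, and for the joint rises of Cyp4d1 and Patsas with their partners.

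Taken gene by gene, members rose more often than they fell in all 4 groups. A gene is called risen or fallen when limma's adjusted p was at most 0.05, with every change a difference of log2(FPKM + 1), a scale that compresses changes of genes with low FPKM. In mip40 RNAi 191 members rose and 49 fell, where 5.69% of all genes tested rose and 3.51% fell. In mip120 RNAi 540 rose and 473 fell, against 17.6% and 18.9% of all genes. In mip130 RNAi 598 rose and 420 fell, against 19.3% and 16.9%. In E2F2 RNAi 282 rose and 54 fell, against 9.28% and 2.72%. As shares of members these are 7.14% rising and 1.83% falling in mip40 RNAi, 20.2% and 17.7% in mip120 RNAi, 22.4% and 15.7% in mip130 RNAi, and 10.5% and 2.02% in E2F2 RNAi. The balance of rises and falls depends on the scaling. In E2F2 RNAi rises made up 83.9% of called members with the deposited scaling, 70% with median-ratio scaling and 68.8% with quantile normalization. Over all genes tested the same shares were 77.3%, 62.2% and 61.0%. In mip130 RNAi members' rises made up 58.7%, 57.6% and 50.9% of calls under these 3 scalings, and over all genes the balance turned round, at 53.3%, 52% and 43.4%. In mip120 RNAi members' rises made up 53.3%, 60.1% and 52.1%, and over all genes 48.3%, 54.3% and 44.6%, again on both sides of 50%. In mip40 RNAi they were 79.6%, 74.1% and 71.7% of members' calls.

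Most pairs in which something changed had a single partner past the test. In mip120 RNAi 65 pairs had both partners risen, 57 both fallen, 89 partners moving in opposite directions, 609 a single called partner and 542 none. The counts in mip130 RNAi were 71, 38, 92, 635 and 526 in the same order. mip40 RNAi gave 8, 1, 4, 215 and 1134, and E2F2 RNAi 20, 1, 4, 294 and 1043. Leaving out a library changed these counts by over 1.5 times. In mip120 RNAi the pairs with the same and with opposite directions numbered 69 and 45 without GFP replicate 1, 55 and 30 without GFP replicate 2, 56 and 35 without mip120 replicate 1, and 42 and 16 without mip120 replicate 2. In mip130 RNAi they numbered 31 and 19 without GFP replicate 2, 54 and 39 without mip130 replicate 1, and 39 and 22 without mip130 replicate 2. Over the 4 groups together 1060 pairs (77.8%) had a called partner in some group.

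**Figure D1:**
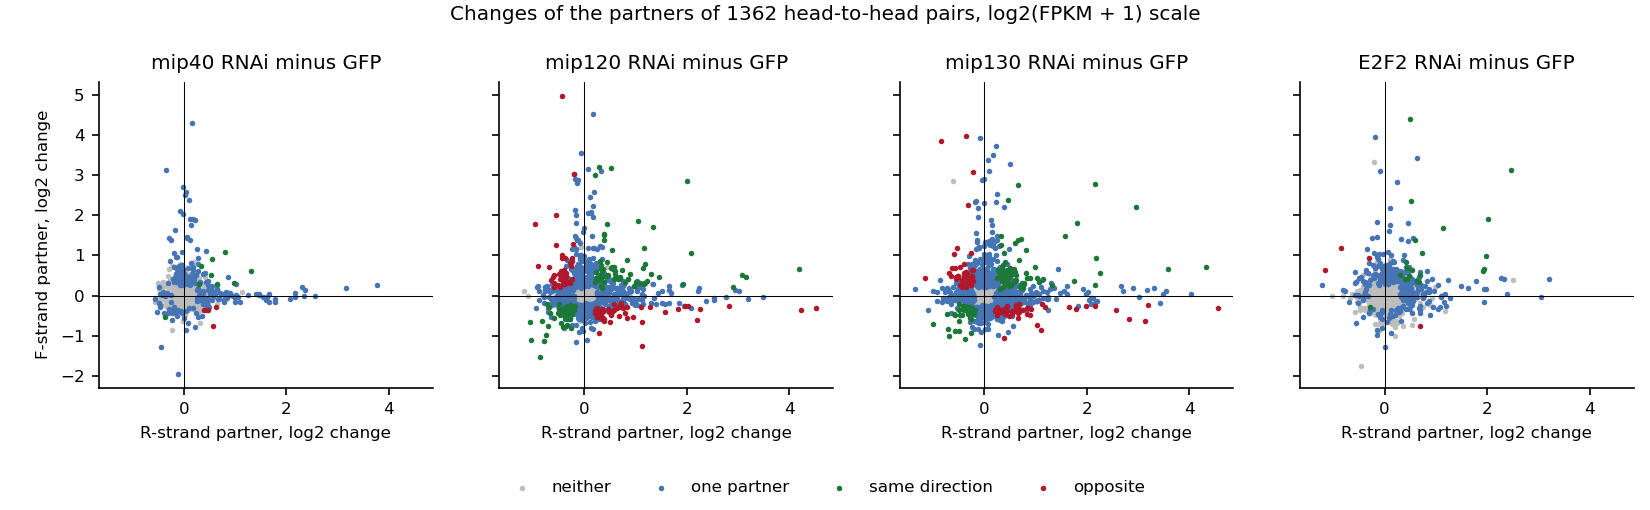
Each point is 1 of the 1362 pairs, with the log2 change of the R-strand partner on the x axis and of the F-strand partner on the y axis, both on the log2(FPKM + 1) scale, in mip40, mip120, mip130 and E2F2 RNAi minus GFP. Colours mark pairs with both partners called in the same direction, in opposite directions, 1 partner called or neither. The points spread along the axes more than along the diagonal, and in mip120 RNAi 609 pairs had a single called partner.

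A direct test compared the partners within each library, as the F-strand minus the R-strand log2 level. By this test the partners' changes differed in 140 pairs (10.3%) in mip40 RNAi, 484 (35.5%) in mip120 RNAi, 512 (37.6%) in mip130 RNAi and 104 (7.64%) in E2F2 RNAi. Over all 7871 neighbouring pairs of any arrangement the same test called 10.4%, 36.0%, 35.4% and 8.39% in those 4 groups, so the head-to-head share lay near the background in each. Every pair called in opposite directions passed it (4, 89, 92 and 4 pairs). So did 32 of the 122 pairs that moved in the same direction in mip120 RNAi and 27 of the 109 in mip130 RNAi, whose partners moved by different amounts.

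Among pairs with both partners called, the share that moved in the same direction lay above 50% in each group, with an interval that took in 50% in mip40 and mip130 RNAi. Where rises far outnumber falls, unrelated partners also share a direction in over 50% of pairs. For mip40 and E2F2 RNAi 50% is therefore no reference for unrelated partners. The same direction held for 57.8% of 211 pairs in mip120 RNAi (95% Clopper-Pearson interval 50.8 to 64.6) and 54.2% of 201 pairs in mip130 RNAi (47.1 to 61.3). In mip40 RNAi it held for 69.2% of 13 pairs (38.6 to 90.9) and in E2F2 RNAi for 84% of 25 pairs (63.9 to 95.5), groups in which 79.6% and 83.9% of all called members were rises. A share of rises is a different measure from a share of same-direction pairs, and no value for unrelated partners was computed. With both partners averaging at least 1 FPKM in GFP cells, the same direction held for 60.0% of 10 pairs in mip40 and 76.5% of 17 in E2F2 RNAi. The mip40 share rests on few pairs: 0 to 6 pairs moved in the same direction when 1 library was left out, and the E2F2 share rests on 1 library of E2F2 RNAi. Where both changes were at least 0.5 on the log2 scale, the share was 69.0% of 42 pairs in mip120 RNAi and 71.1% of 38 in mip130 RNAi.

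The calls of a member's partner were counted next. When a member rose in mip120 RNAi, its partner rose in 23.6% and fell in 16.1% of cases, beside 20.3% and 17.6% over all partners. When a member fell in mip120 RNAi, the partner rose in 18.6% and fell in 23.8%. In mip130 RNAi the partner of a risen member rose in 23.3% and fell in 15.1%, beside 22.4% and 15.7% over all partners. In E2F2 RNAi the partner of a risen member rose in 13.9% of cases, beside 10.5% over all.

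Across pairs, the partners' log2 changes had Pearson r of 0.002 in mip40 RNAi, 0.046 in mip120 RNAi, 0.017 in mip130 RNAi and 0.098 in E2F2 RNAi, with Spearman rho of 0.009, 0.085, 0.016 and 0.034 (1362 pairs, a description, since the pairs share libraries). With no treatment between the libraries, replicate 2 minus replicate 1 gave r of -0.016 in mip40 RNAi, -0.052 in mip120 RNAi, -0.063 in mip130 RNAi and -0.014 in GFP cells. The partners' mean levels had r of 0.133. In the 1253 pairs with both partners averaging at least 1 FPKM in GFP cells, r of the changes was -0.004 in mip40, 0.07 in mip120, -0.005 in mip130 and 0.025 in E2F2 RNAi.

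The same counts were made for the other arrangements. In mip120 RNAi the same direction held for 57.8% of both-called head-to-head pairs, 58.1% of tandem neighbours, 53.4% of convergent ones and 60.0% of divergent neighbours over 500 and up to 2000 bp apart. In mip130 RNAi it held for 54.2% of head-to-head pairs, 53.1% of tandem, 52.1% of convergent and 67.7% of those wider divergent neighbours. In mip40 RNAi the values were 69.2%, 60.0%, 68.8% and 66.7%. In E2F2 RNAi head-to-head pairs lay above every other arrangement, with 84% of 25 pairs, against 65.2% of 46 tandem, 65.9% of 41 convergent, 66.7% of 6 wider divergent and 70% of 10 divergent neighbours over 2000 bp apart. Some of those 25 pairs held a gene below 1 FPKM in GFP cells, included through other libraries, which favours joint rises. With both partners averaging at least 1 FPKM there, the head-to-head share was 76.5% of 17 pairs (50.1 to 93.2). The other arrangements were not restricted in this way, so the excess is not read as a result. The r of changes in mip120 RNAi was 0.046 for head-to-head pairs, 0.051 for tandem and 0.046 for convergent neighbours, and 0.1 for the 395 divergent neighbours over 500 and up to 2000 bp apart. At gaps up to 100 bp the same direction held for 64.2% of 53 pairs in mip120 RNAi and 53.8% of 52 in mip130 RNAi, and at 401 to 500 bp for 58.6% of 29 in mip120 RNAi and 68.8% of 32 in mip130 RNAi. Rises made up 83.9% of called members in E2F2 RNAi and 73.7% of called genes outside the pairs. No difference between arrangements or distance classes was tested.

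**Figure D2:**
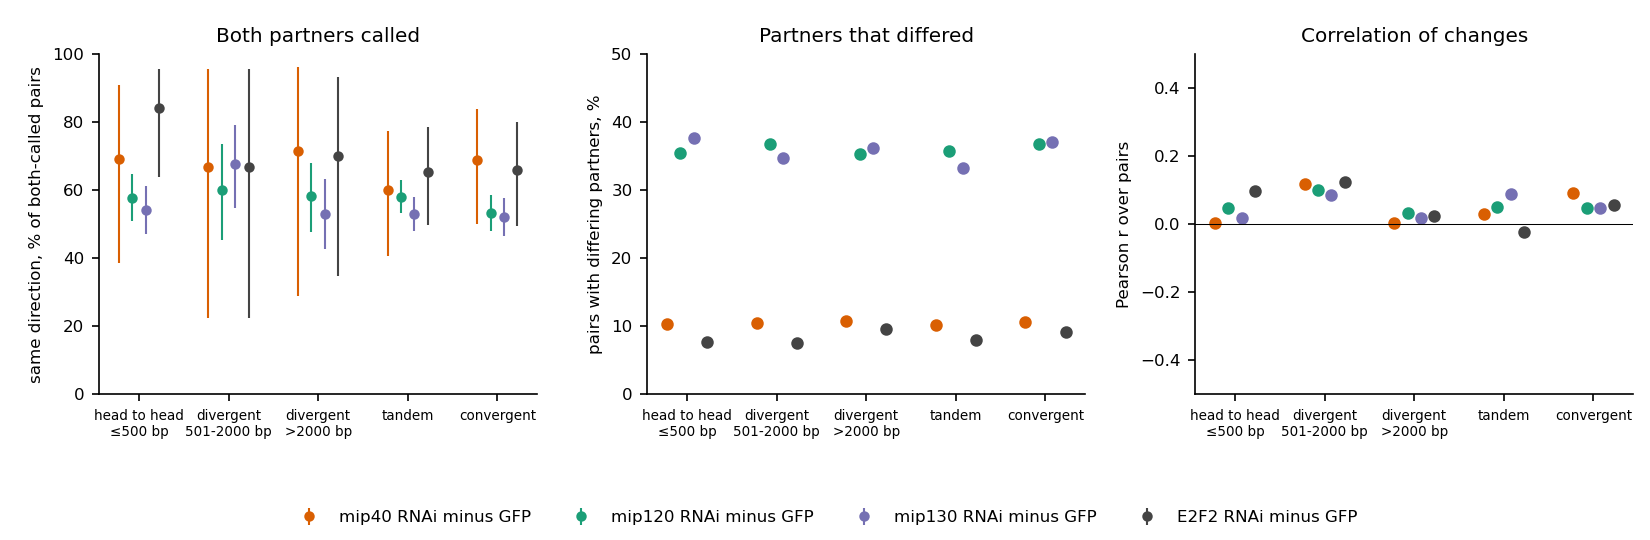
For head-to-head pairs and 4 other neighbour arrangements on the x axis, the left panel gives the percent of both-called pairs that moved in the same direction with its 95% Clopper-Pearson interval, the middle panel the percent of pairs whose partners differed in their change, and the right panel Pearson r of the partners' changes over pairs. Colours stand for the 4 RNAi groups minus GFP. In the left panel head-to-head pairs lie above the other arrangements in E2F2 RNAi, at 84% of 25 pairs, and below the divergent neighbours up to 2000 bp apart in mip130 RNAi, at 54.2% against 67.7%. Without pairs that held a gene below 1 FPKM in GFP cells, the E2F2 share of head-to-head pairs was 76.5% of 17 pairs.

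In the 101 pairs with a single partner below 1 FPKM in GFP cells, the low gene had to be higher elsewhere to be included, so what is read here is its active partner. The low partner rose by at least 1 in 61 pairs in mip120 RNAi. The active partners of those 61 genes had a median of 34.8 FPKM in GFP cells, 14 rose (23.0%), 14 fell (23.0%) and 33 passed no test, beside 17.6% and 18.9% of all genes tested, and their median change was 0.06. In mip130 RNAi there were 64 such pairs, with 9 active partners risen (14.1%) and 11 fallen (17.2%), beside 19.3% and 16.9% of all genes, and a median change of 0.09. In mip40 RNAi 1 of 25 active partners rose, where 5.69% of all genes did, and the other 24 passed no test, with a median of 0.01. In E2F2 RNAi 6 of 21 active partners rose (28.6%), where 9.28% of all genes did, with a median of 0.26 beside 0.08 over all genes, so that there the active partner rose more often than genes at large. That difference was not tested. Low genes were chosen here by their GFP level and by their own rise of at least 1 in the same group. Active partners had to average at least 1 FPKM in the same GFP libraries that enter their change. Their changes are therefore not fully independent of the choice.

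Members that rose by at least 1, whatever their level, were then set beside their partners. In mip120 RNAi 111 of their 134 partners (82.8%) changed by less than 0.5 in either direction, beside 82.3% over all partners. In mip130 RNAi 112 of 137 did so (81.8%), beside 82.5% over all, and in mip40 RNAi 48 of 50 (96.0%), beside 93.9%. Partners of strong risers thus changed by little about as often as partners in general in the mip groups. In E2F2 RNAi the share was lower, 41 of 56 (73.2%) beside 88.9% over all partners. The partner itself rose by at least 1 in 10 cases in mip120 RNAi (7.46%, beside 4.92% over all partners), 8 in mip130 RNAi (5.84%, beside 5.03%) and 6 in E2F2 RNAi (10.7%, beside 2.06%). Each such pair counts here from both sides. In mip130 RNAi the pairs were CG6790 with CG5342, CG30285 with CG10307, tor with CG1941 and CG34336 with CG2930. In all of these both partners averaged below 1 FPKM in GFP cells and had to be higher elsewhere to be included. CG6790 with CG5342 and CG30285 with CG10307 also counted in E2F2 RNAi, beside Ndc80 with BthD, and in mip120 RNAi. The higher shares are thus not read as joint rises, and no difference was tested.

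**Figure D3:**
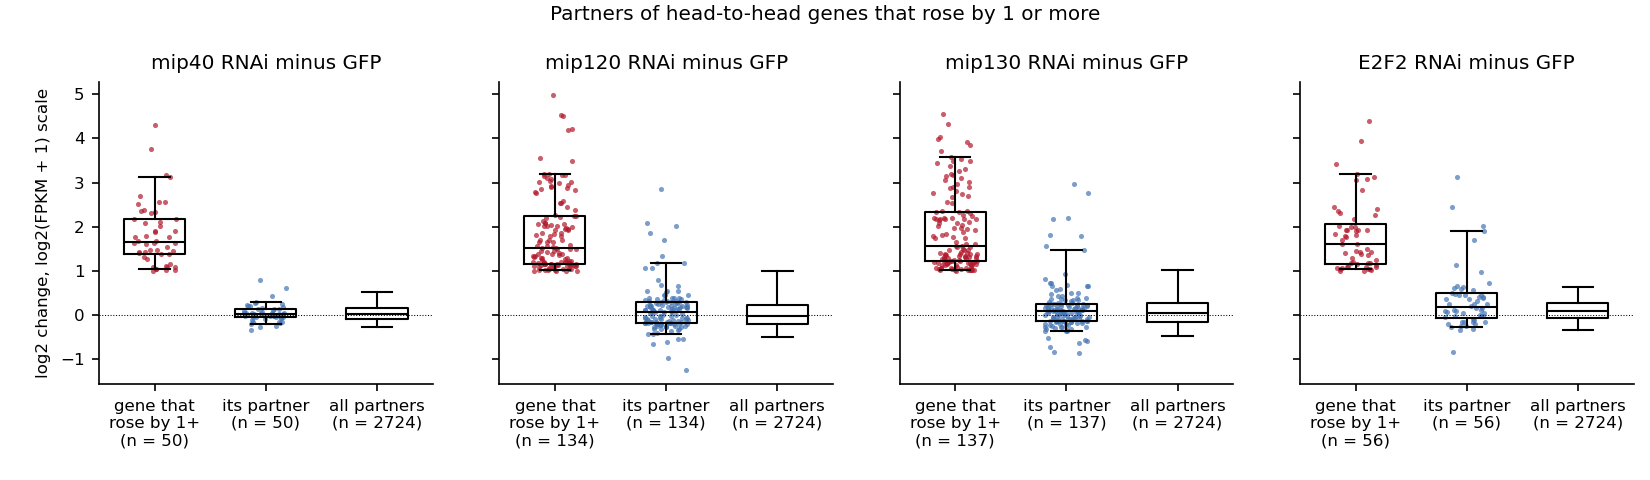
In each panel the left box and points are members that rose by at least 1 in an RNAi group minus GFP, the middle box and points are their partners, and the right box is the partner of every member (2724 places). The y axis is the log2 change on the log2(FPKM + 1) scale, boxes span the quartiles with the median, and whiskers run from the 5th to the 95th percentile. The partners' medians lie between 0.02 in mip40 RNAi and 0.18 in E2F2 RNAi.

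CG8316 (corolla in the reference), which encodes a protein of the synaptonemal complex that holds meiotic chromosomes together, starts at position 17526053 of chromosome X on the R strand. Its partner CG5703 (ND-24), a subunit of mitochondrial complex I, starts at 17526122, 69 bp away. CG8316 stood at 8.22 and 7.26 FPKM in mip40 RNAi, 25.9 and 27.5 in mip120 RNAi, 23.7 and 23.0 in mip130 RNAi and 12.6 in E2F2 RNAi, against 0.397 and 0.576 in GFP cells. CG5703 stood at 74.5 and 66.0 FPKM in mip40 RNAi, 54.9 and 54.9 in mip120 RNAi, 72.3 and 73.2 in mip130 RNAi and 94.5 in E2F2 RNAi, against 76.5 and 66.0 in GFP cells. Every RNAi library lay above both GFP libraries for CG8316, while for CG5703 the mip120 libraries lay below GFP, the E2F2 library above and the others within its range. CG8316 rose by 2.56 ± 0.09 in mip40, 4.22 ± 0.09 in mip120, 4.04 ± 0.09 in mip130 and 3.2 ± 0.11 in E2F2 RNAi (SE, limma adjusted p at most 4.1e-05). CG5703 fell by 0.37 ± 0.09 in mip120 RNAi (adjusted p = 0.018) and passed no test in the other groups.

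At the alc and CG8788 pair, 62 bp apart on chromosome 2R (positions 5025455 and 5025517), alc encodes the beta subunit of AMP-activated kinase. CG8788 was at 8.67 and 9.35 FPKM in mip40 RNAi, 12.8 and 12.8 in mip120 RNAi, 22.3 and 22.5 in mip130 RNAi and 0.461 in E2F2 RNAi, against 0.71 and 0.394 in GFP cells. alc was at 32.3 and 36.9 FPKM in mip40 RNAi, 36.4 and 37.4 in mip120 RNAi, 33.5 and 31.5 in mip130 RNAi and 28.7 in E2F2 RNAi, against 32.8 and 36.7 in GFP cells. CG8788 was thus high in every mip library and at the GFP level with E2F2 RNAi, while alc overlapped the GFP range in every group but E2F2 RNAi, where it was lower. The partners' changes differed by 2.70 ± 0.16, 3.07 ± 0.16 and 4.02 ± 0.16 in mip40, mip120 and mip130 RNAi (F minus R, limma adjusted p = 0.00029, 7.8e-05 and 4.2e-05) and by 0.19 ± 0.19 in E2F2 RNAi (adjusted p = 0.55). Only 0.869% of the FPKM listed for CG8788 lay in its annotated transcripts, the rest in new isoforms.

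The 81 bp between CG8771 (Nup188, a nuclear pore protein) and CG13148 on chromosome 2R (8573670 and 8573751) showed the same contrast. CG13148 was at 6.19 and 6.55 FPKM in mip40 RNAi, 14.2 and 14 in mip120 RNAi, 13.7 and 11.1 in mip130 RNAi and 0.0911 in E2F2 RNAi, against 0.237 and 0.343 in GFP cells. CG8771 held between 15 and 18.2 FPKM in all 7 RNAi libraries, against 16.1 and 16.1 in GFP cells, and passed no test. CG13148 rose by 2.51 ± 0.12, 3.55 ± 0.12 and 3.37 ± 0.12 in mip40, mip120 and mip130 RNAi (adjusted p at most 5e-05).

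Sod2, the mitochondrial superoxide dismutase, lies 235 bp from Arp53D, an actin-related protein known from testis (chromosome 2R, 12661440 and 12661675). Arp53D was at 0.256 and 0.12 FPKM in mip40 RNAi, 19.9 and 24 in mip120 RNAi, 12.5 and 11.8 in mip130 RNAi and 14.4 in E2F2 RNAi, and was listed at 0 in both GFP libraries. Sod2 ranged over 128 to 183 FPKM in the 7 RNAi libraries, against 142 and 153 in GFP cells, and passed no test. The split was seen in mip120, mip130 and E2F2 RNAi and not in mip40 RNAi. Arp53D reached 1 FPKM in those groups alone and was included through them, so its rise there is not read as a result. In the mip120 libraries nearly all of the Arp53D signal came from a new isoform that starts at 12661675, whereas the annotated transcript starting at 12661811 gave 0.000586 and 0.000446 FPKM in mip120 RNAi, 1.54 and 6.22 in mip130 RNAi and 8.36 in E2F2 RNAi. With annotated transcripts alone the log2 change of Arp53D was 0.00 in mip120, 2.10 in mip130 and 3.23 in E2F2 RNAi.

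CG3726, 364 bp from CG3011 (Shmt, a serine hydroxymethyltransferase of one-carbon metabolism) on chromosome X, departed in another set of groups. It was at 18.3 and 19.1 FPKM in mip40 RNAi and 20.1 in E2F2 RNAi, and was listed at 0 in all mip120 and mip130 libraries and in both GFP libraries. CG3011 was at 40.1 and 34.7 FPKM in mip40 RNAi, 29.4 and 32.4 in mip120 RNAi, 34.6 and 35.6 in mip130 RNAi and 47.2 in E2F2 RNAi, against 35.8 and 31.1 in GFP cells. A new isoform starting at 5811194 carried 18.0 and 18.4 of the FPKM of CG3726 in mip40 RNAi. CG3726 reached 1 FPKM in mip40 and E2F2 RNAi alone and was included through those libraries. The differences given next follow from that inclusion and are not read as a result. The partners' changes differed by 4.15 ± 0.13 in mip40 and 3.91 ± 0.16 in E2F2 RNAi (adjusted p = 8e-05 and 0.00016).

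Other pairs named by the same rule split alike. Among them CG3505 and CG4213 averaged below 1 FPKM in GFP cells and had to be higher elsewhere to be included. Their rises, and the differences from their partners, are therefore not read as a result. CG14545 rose by 2.36 ± 0.11, 3.49 ± 0.11, 3.44 ± 0.11 and 1.78 ± 0.13 in mip40, mip120, mip130 and E2F2 RNAi (adjusted p at most 0.00088) beside CG5886, which passed no test. CG3505 rose by 1.76 ± 0.09, 2.88 ± 0.09, 2.88 ± 0.09 and 3.09 ± 0.12 beside l(3)L1231, 40 bp away and not called in any group, but its annotated transcripts alone gave 0.42, -0.64, 0.38 and 1.72. CG4213 rose by 2.37 ± 0.11 in mip120, 1.92 ± 0.11 in mip130 and 3.05 ± 0.14 in E2F2 RNAi beside RpI135, the second largest subunit of RNA polymerase I, whose values of 21.9 to 28.4 FPKM in the RNAi libraries took in the 25.2 and 23.9 FPKM of GFP cells. CG30383 rose by 3.77 ± 0.24, 4.19 ± 0.24 and 4.32 ± 0.24 in the 3 mip groups, where its partner phr, a DNA photolyase, changed by 0.25 ± 0.12 in mip40 RNAi (adjusted p = 0.23) and rose by 0.66 ± 0.12 in mip120 and 0.72 ± 0.12 in mip130 RNAi.

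Of the 8 pairs with both partners below 1 FPKM on average in GFP cells, 4 rose together in at least 1 group. Genes this low were included because other libraries held more, so their joint rise is given as a description and does not show that partners move together. CG6790 and CG5342, 81 bp apart on chromosome 3R (7404467 and 7404548), are among the 3 pairs that rose together in all 4 groups. CG6790 was at 2.47 and 2.02 FPKM in mip40 RNAi, 3.09 and 3.27 in mip120 RNAi, 4.15 and 4.89 in mip130 RNAi and 6.55 in E2F2 RNAi, against 1.03 and 0.7 in GFP cells. CG5342 was at 2.28 and 2.34 FPKM in mip40 RNAi, 2.94 and 2.2 in mip120 RNAi, 3.64 and 3.07 in mip130 RNAi and 4.83 in E2F2 RNAi, against 0.508 and 0.621 in GFP cells. For both genes every RNAi library exceeded both GFP libraries, and both were highest with E2F2 RNAi. Their rises were 0.80 ± 0.14 and 1.08 ± 0.14 in mip40 RNAi, 1.17 ± 0.14 and 1.18 ± 0.14 in mip120 RNAi, 1.57 ± 0.14 and 1.48 ± 0.14 in mip130 RNAi, and 2.02 ± 0.17 and 1.90 ± 0.17 in E2F2 RNAi, for CG6790 and CG5342 in that order. The partners' changes differed by -0.12 ± 0.25 to 0.28 ± 0.21 and no difference passed the test. In mip40 RNAi the rise of CG6790 (adjusted p = 0.018) was lost without GFP replicate 2 (0.0812) or mip40 replicate 1 (0.091).

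CG30285 (BaraC in the reference) and CG10307, 391 bp apart on chromosome 2R (17576026 and 17576417), rose together in 3 groups. CG30285 was listed at 0 in both mip40 libraries, at 3.05 and 3.66 FPKM in mip120 RNAi, 4.05 and 3.63 in mip130 RNAi and 4.92 in E2F2 RNAi, against 0 and 0.161 in GFP cells. CG10307 was at 0.316 and 0.655 FPKM in mip40 RNAi, 6.91 and 8.76 in mip120 RNAi, 7.28 and 7.38 in mip130 RNAi and 9.71 in E2F2 RNAi, against 0.231 and 0.211 in GFP cells. Both were near the GFP level with mip40 RNAi and clear of it in the other groups. CG10307 rose by 2.85 ± 0.15 in mip120 and 2.77 ± 0.15 in mip130 RNAi, more than CG30285 by 0.83 ± 0.15 and 0.60 ± 0.15 (adjusted p = 0.0072 and 0.023).

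The pair of tor, the receptor tyrosine kinase Torso that patterns the ends of the embryo, and CG1941, 337 bp apart on chromosome 2R, rose mainly with mip130 RNAi. tor was at 0.829 and 0.895 FPKM in mip40 RNAi, 0.488 and 0.654 in mip120 RNAi, 7.52 and 6.55 in mip130 RNAi and 0.0634 in E2F2 RNAi, against 0 and 0.056 in GFP cells. CG1941 was at 0.756 and 1.13 FPKM in mip40 RNAi, 0.828 and 0.947 in mip120 RNAi, 5.48 and 5.35 in mip130 RNAi and 0.567 in E2F2 RNAi, against 0.387 and 0.404 in GFP cells. Both partners stood far above the other libraries in mip130 RNAi, where they rose by 2.96 ± 0.14 and 2.20 ± 0.14 (adjusted p = 3.6e-05 and 0.00013). CG34336 (yin) and CG2930, 183 bp apart on chromosome X, rose by 1.34 ± 0.18 and 1.70 ± 0.14 in mip120 RNAi and by 1.80 ± 0.18 and 1.81 ± 0.14 in mip130 RNAi, and the log2 changes with E2F2 RNAi were -0.04 ± 0.22 and 0.06 ± 0.17.

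Joint rises also occurred between active genes. Ndc80, an outer kinetochore protein, and BthD, a selenoprotein, lie 138 bp apart on chromosome X. Ndc80 was at 8.11 and 6.98 FPKM in mip40 RNAi, 7.63 and 8.98 in mip120 RNAi, 8.66 and 10.3 in mip130 RNAi and 12.9 in E2F2 RNAi, against 5.83 and 4.9 in GFP cells. BthD was at 256 and 205 FPKM in mip40 RNAi, 228 and 237 in mip120 RNAi, 284 and 278 in mip130 RNAi and 345 in E2F2 RNAi, against 108 and 104 in GFP cells. All RNAi libraries of both genes lay above GFP, and both were highest with E2F2 RNAi, where they rose by 1.13 ± 0.16 and 1.69 ± 0.13 (adjusted p = 0.0091 and 0.00091). shtd, the largest subunit of the anaphase-promoting complex, rose by 0.53 ± 0.08, 0.64 ± 0.08 and 0.99 ± 0.08 in mip40, mip120 and mip130 RNAi, and its partner CG6294, 387 bp away, by 0.52 ± 0.09, 0.44 ± 0.09 and 0.71 ± 0.09. The mip40 rise of CG6294 was lost without either GFP or either mip40 library (0.063 to 0.0877), its mip120 rise without mip120 replicate 1 (0.0504) or 2 (0.0584), and the mip40 rise of shtd without GFP replicate 2 (0.0589). Cyp4d1, a cytochrome P450, and CG3630, 69 bp away, rose in all 4 groups. In this pair only CG3630 was active in GFP cells. Cyp4d1 was at 0.531 and 0.638 FPKM there and had to be higher elsewhere to be included, so its rise is not read as a result. Cyp4d1 rose more than CG3630 by 1.02 ± 0.24 in mip120 and 1.25 ± 0.24 in mip130 RNAi (F minus R differences of -1.02 and -1.25, adjusted p = 0.021 and 0.011).

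Joint falls were smaller, and a single pair fell in all 3 mip groups. CG14523 and CG14526 (Nepl19 and Nepl21, of the neprilysin-like peptidases), 176 bp apart on chromosome 3R (24705844 and 24706020), are members of a gene family, so reads may be shared between near copies. CG14523 was at 36.7 and 36.3 FPKM in mip40 RNAi, 26.1 and 28.4 in mip120 RNAi, 36.8 and 40.4 in mip130 RNAi and 45.5 in E2F2 RNAi, against 50.0 and 44.8 in GFP cells. CG14526 was at 13.5 and 13.6 FPKM in mip40 RNAi, 8.5 and 8.64 in mip120 RNAi, 14.8 and 16.7 in mip130 RNAi and 24.3 in E2F2 RNAi, against 20.3 and 19.7 in GFP cells. The mip libraries lay below both GFP libraries for both genes and were lowest with mip120 RNAi. There the genes fell by 0.78 ± 0.08 and 1.13 ± 0.07 (adjusted p = 0.00071 and 0.0001). The mip40 fall of CG14523 (adjusted p = 0.039) was lost without any single mip or GFP library (0.0566 to 0.165), and its mip130 fall (adjusted p = 0.032) without GFP replicate 1 (0.128), mip130 replicate 1 (0.145) or mip130 replicate 2 (0.0565), as was that of CG14526 without GFP replicate 1 (0.0526), GFP replicate 2 (0.0514) or mip130 replicate 1 (0.0619).

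Klp67A, a kinesin of the mitotic spindle, and CG4452, 426 bp apart on chromosome 3L, fell together in mip120 and mip130 RNAi. Klp67A was at 20.5 and 21.3 FPKM in mip40 RNAi, 12.2 and 11.7 in mip120 RNAi, 12.1 and 13.1 in mip130 RNAi and 39.1 in E2F2 RNAi, against 27.5 and 24.8 in GFP cells. CG4452 was at 14.4 and 14.6 FPKM in mip40 RNAi, 12.6 and 12 in mip120 RNAi, 11.9 and 11.9 in mip130 RNAi and 20.1 in E2F2 RNAi, against 18.9 and 21.1 in GFP cells. The partners were both low in the mip libraries, but the E2F2 library was above GFP for Klp67A alone. CG10863 and CG14982, 245 bp apart on chromosome 3L, fell by 1.03 ± 0.05 and 1.1 ± 0.11 in mip120 RNAi (adjusted p = 4.9e-05 and 0.00063). vito, a nucleolar protein gene, fell by 0.87 ± 0.07 in mip120 and 1.1 ± 0.07 in mip130 RNAi. Its partner PGRP-LD, 10 bp away, was at 0.839 and 0.165 FPKM in mip120 RNAi, against 3.33 and 3.1 in GFP cells, and its fall (adjusted p = 0.039) was lost whenever a mip120 or GFP library was left out (0.0659 to 0.193).

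Of the pairs that split in opposite directions, 4 did so in all 3 mip groups and 1 of these in E2F2 RNAi too. That pair is zuc, the Zucchini nuclease of piRNA production, and escl, a partner of the Polycomb methyltransferase complex, 72 bp apart on chromosome 2L (11989861 and 11989933). zuc was at 26.3 and 23.2 FPKM in mip40 RNAi, 35.1 and 38.5 in mip120 RNAi, 35.6 and 36.1 in mip130 RNAi and 26.9 in E2F2 RNAi, against 17.0 and 15.5 in GFP cells. escl was at 4.83 and 5.85 FPKM in mip40 RNAi, 5.47 and 6.1 in mip120 RNAi, 5.07 and 4.63 in mip130 RNAi and 5.37 in E2F2 RNAi, against 9.4 and 9.9 in GFP cells. No RNAi library of either gene overlapped GFP, zuc being above and escl below it in all 7. The partners' changes differed by -1.33 ± 0.15 in mip40, -1.78 ± 0.15 in mip120, -1.96 ± 0.15 in mip130 and -1.44 ± 0.19 in E2F2 RNAi (F minus R, adjusted p = 0.0042, 0.00058, 0.00044 and 0.011). In mip40 RNAi neither call held without GFP replicate 2 (adjusted p = 0.0595 for zuc and 0.0579 for escl), nor that of zuc without mip40 replicate 1 (0.0517). The E2F2 fall of escl was lost without GFP replicate 1 (0.0511) or 2 (0.0779).

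**Figure D4:**
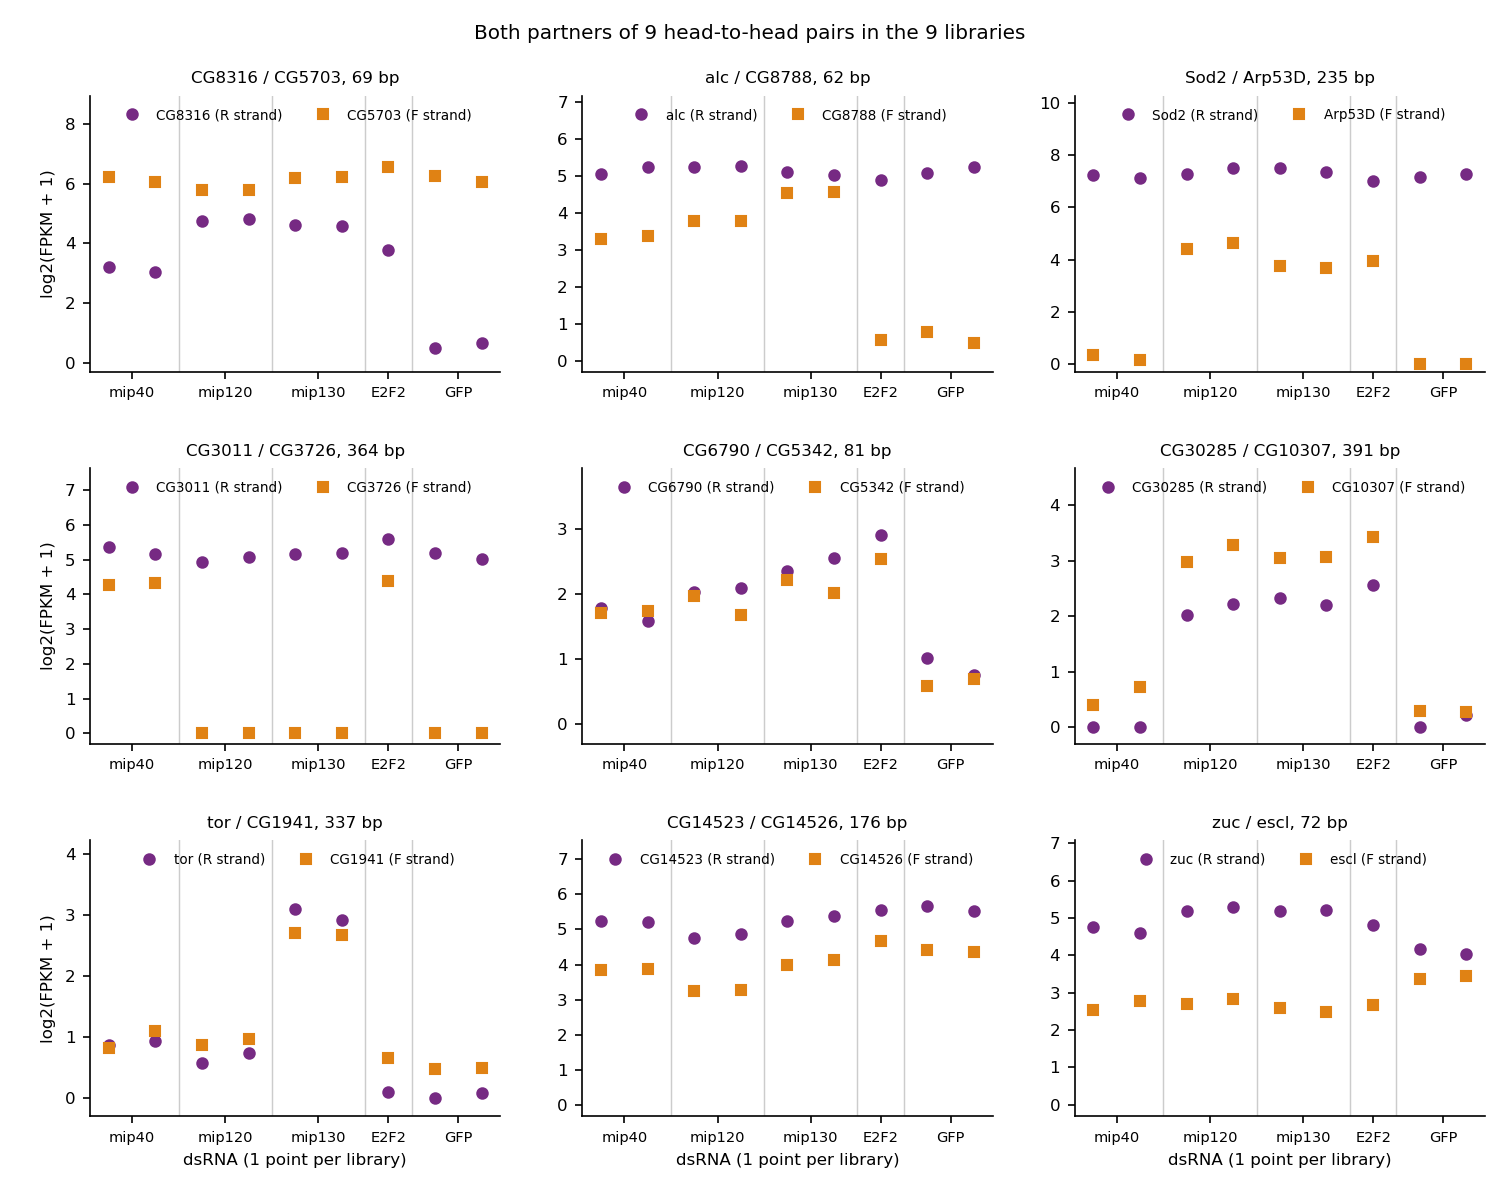
Both partners of 9 pairs, as log2(FPKM + 1) on the y axis, with 1 point per library in the mip40, mip120, mip130, E2F2 and GFP groups on the x axis (circles for the R-strand gene, squares for the F-strand gene). In the first 4 panels 1 partner leaves the GFP level while the other stays near it. In the next 4 the partners move together, and in the last zuc lies above and escl below GFP in every RNAi library. The risers of the first 4 panels averaged below 1 FPKM in GFP cells, as did both partners of CG6790 / CG5342, CG30285 / CG10307 and tor / CG1941. These genes had to be higher elsewhere to be included, so their rises are not read as a result.

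The others were CG9319 (Amacr, a racemase of fatty acid breakdown) with ns4, 135 bp apart, CG3803 with thoc5, a subunit of the THO complex of mRNA export, 54 bp apart, and RpS19b with CG5854, 44 bp apart. CG3803 rose by 0.47 ± 0.06, 0.83 ± 0.06 and 0.68 ± 0.06 in mip40, mip120 and mip130 RNAi, while thoc5 fell by 0.35 ± 0.08, 0.54 ± 0.08 and 0.41 ± 0.08. RpS19b, a ribosomal protein gene with a close copy in the genome, so that shared reads are possible, rose by 0.62 ± 0.10, 0.35 ± 0.10 and 0.90 ± 0.10, while CG5854 fell by 0.29 ± 0.06, 0.53 ± 0.06 and 0.33 ± 0.06. The mip120 rise of RpS19b was lost without GFP replicate 2 (0.141), mip120 replicate 1 (0.0622) or mip120 replicate 2 (0.154), and was 0.16 with annotated transcripts alone (adjusted p = 0.27). Its mip40 rise was lost without GFP replicate 2 (0.0731) or mip40 replicate 1 (0.068), and the mip40 rise of CG9319 without either GFP or either mip40 library (0.0545 to 0.0822). The mip40 calls of ns4, thoc5 and CG5854 were each lost without 1 library (highest adjusted p = 0.171, 0.147 and 0.146), and the mip120 call of ns4 was lost without GFP replicate 1 (0.0651), GFP replicate 2 (0.062) or mip120 replicate 2 (0.0999). With the mip40 and GFP libraries alone in the fit, no mip40 call of zuc, escl or these 3 pairs passed the threshold. In mip130 RNAi each of the 8 genes kept its call without any single mip or GFP library.

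In mip120 RNAi the widest opposite moves by the smaller partner included kst, the beta-heavy spectrin, which fell by 1.25 ± 0.12 (adjusted p = 0.00049) beside Drsl6, a drosomycin-like peptide gene with 2.42 and 1.44 FPKM in mip120 RNAi and 0.35 and 0.304 in GFP cells, whose rise was lost without any of these 4 libraries (0.054 to 0.142). Drsl6 had to be higher elsewhere to be included, so its rise is not read as a result. Tig, a matrix ligand of integrins, fell by 0.90 ± 0.08 and Fic, a Fic-domain enzyme, rose by 0.73 ± 0.11. In E2F2 RNAi ssh, the cofilin phosphatase Slingshot, fell by 1.16 ± 0.14 and Nmnat, an enzyme of NAD synthesis, rose by 0.64 ± 0.11, a call lost without GFP replicate 1 (0.0517) or 2 (0.0659). That fall lay in an overlapping transcript, at 9.82 FPKM in E2F2 RNAi against 38.4 and 44.8 in GFP cells, and the annotated transcripts of ssh alone changed by -0.14. CG14512 (Alg13, of glycan synthesis), 89 bp from CG14516 on chromosome 3R, fell by 0.85 ± 0.09 in mip130 RNAi while CG14516 rose by 3.85 ± 0.08.

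A further 4 pairs were picked after their values were seen, because a near-silent gene rose by at least 2 while its active partner fell. The near-silent genes had to be higher elsewhere to be included, so their rises are not read as a result. hdm, a meiotic recombination gene, was at 5.78 and 6.14 FPKM in mip40 RNAi, 5.75 and 6.23 in mip120 RNAi, 12.7 and 14.4 in mip130 RNAi and 0.395 in E2F2 RNAi, against 0.546 and 0.762 in GFP cells. Its partner Ykt6, a SNARE of vesicle fusion 157 bp away, was at 111 and 97.1 FPKM in mip40 RNAi, 93.3 and 84.2 in mip120 RNAi, 77.1 and 66.3 in mip130 RNAi and 90.8 in E2F2 RNAi, against 101 and 121 in GFP cells, and fell by 0.62 ± 0.12 in mip130 RNAi (adjusted p = 0.0096), a call lost without GFP replicate 2 (0.0576) or mip130 replicate 2 (0.0598). c(2)M, a component of meiotic chromosome cores, rose by 2.00 ± 0.10 in mip120 and 2.25 ± 0.10 in mip130 RNAi, while CG5869, 310 bp away, fell by 0.54 ± 0.08 and 0.31 ± 0.08, the second call being lost without either GFP or either mip130 library (0.056 to 0.103). CG14052 rose by 4.98 ± 0.24 and 3.98 ± 0.24 and Vinc, vinculin of cell adhesion, fell by 0.43 ± 0.09 and 0.36 ± 0.09 in those groups. The falls of Vinc were lost without GFP replicate 2 or mip120 replicate 2 in mip120 RNAi (0.0761 and 0.0661), and without GFP replicate 2 or either mip130 library in mip130 RNAi (0.0909 to 0.137). CG2887 rose by 4.53 ± 0.10 and 4.56 ± 0.10 and PPP4R2r, a regulator of protein phosphatase 4, fell by 0.31 ± 0.08 and 0.32 ± 0.08, although 2.74% of the FPKM of CG2887 lay in annotated transcripts. The falls of PPP4R2r were lost without GFP replicate 2 or mip120 replicate 2 in mip120 RNAi (0.107 and 0.122), and without GFP replicate 2 or either mip130 library in mip130 RNAi (0.0597 to 0.112). With annotated transcripts alone the mip120 falls of Vinc and PPP4R2r had adjusted p of 0.13 and 0.07.

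Of the dREAM subunits, 3 are themselves head-to-head genes. mip120 lies 85 bp from drk, the adaptor of receptor tyrosine kinase signalling, on chromosome 2R (9393839 for drk and 9393924 for mip120). mip120 was at 76.2 and 87.0 FPKM in mip40 RNAi, 28.5 and 30.0 in mip120 RNAi, 72.2 and 82.2 in mip130 RNAi and 37.1 in E2F2 RNAi, against 52.5 and 45.7 in GFP cells. drk was at 260 and 251 FPKM in mip40 RNAi, 236 and 227 in mip120 RNAi, 246 and 250 in mip130 RNAi and 279 in E2F2 RNAi, against 295 and 290 in GFP cells. Summed over its transcripts, drk was thus below GFP in all 7 RNAi libraries, whether mip120 stood above or below its GFP level. This did not hold with annotated transcripts alone. There drk was at 240 FPKM in E2F2 RNAi and 202 and 211 in mip130 RNAi, against 230 and 207 in GFP cells. Annotated mip120 was at 15.5 FPKM in E2F2 RNAi, above the 12.8 and 12.2 of GFP cells. drk fell by 0.34 ± 0.06 in mip120 and 0.24 ± 0.06 in mip130 RNAi, where mip120 fell by 0.72 ± 0.10 and rose by 0.64 ± 0.10. The mip130 fall of drk was lost without either GFP or either mip130 library (0.0685 to 0.0947), and with annotated transcripts alone it was -0.08 (adjusted p = 0.4). Rbf2, a retinoblastoma-family subunit, was at 6.77 and 7.41 FPKM in mip40 RNAi, 7.43 and 7.74 in mip120 RNAi, 8.98 and 10.7 in mip130 RNAi and 9.99 in E2F2 RNAi, against 5.69 and 4.79 in GFP cells, while its partner CG32856, 100 bp away, passed no test. The mip120 rise of Rbf2 was lost without GFP replicate 2 (0.0952), mip120 replicate 1 (0.0678) or mip120 replicate 2 (0.0981). Caf1 and its partner CG31344 passed no test in any group. BEAF-32, an insulator protein bound at many such promoters, rose by 0.34 ± 0.07, 0.49 ± 0.07, 0.57 ± 0.07 and 0.69 ± 0.09 in mip40, mip120, mip130 and E2F2 RNAi beside Spred, 178 bp away, which passed no test. The mip40 rise of BEAF-32 was lost without any of 7 libraries (0.0563 to 0.141).

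Cytosolic ribosomal protein genes were set beside their head-to-head partners. In mip130 RNAi 19 of the 28 in pairs rose, where 19.3% of all genes did, and the other 9 passed no test. The median change of the 28 was 0.59, beside 0.01 over all genes tested. Of the partners in those 30 pairs 9 rose and 5 fell, with a median of 0.05, and in 14 pairs the partners' changes differed. The rise held for 20 members with median-ratio scaling and 16 with quantile normalization. RpL28, the large-subunit protein, rose by 0.67 ± 0.10 and its partner CG17737 (eIF1, of translation initiation) by 0.89 ± 0.09 in mip130 RNAi, 1 of 6 such pairs in which both rose. Mitochondrial ribosomal protein genes, 41 of them in pairs, had 6 risen and 7 fallen in mip130 RNAi, where 19.3% and 16.9% of all genes did so. Of their partners 6 rose and 10 fell.

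In E2F2 RNAi the cell cycle lists had more rises than their partners. Over all genes tested 9.28% rose in that group. Of 29 head-to-head genes of G2 and mitosis 10 rose and the other 19 passed no test, with a median of 0.35 beside 0.08 over all genes, while 2 of their partners rose and 27 passed no test, with a median of 0.05. Of 18 DNA replication genes 7 rose and 11 passed no test, with a median of 0.31 and a median of 0.04 over their partners, which passed no test. These counts were 9 and 4 with median-ratio scaling and 9 and 3 with quantile normalization. RpA-70, the large subunit of the single-strand binding protein RPA, rose by 0.43 ± 0.08 in E2F2 RNAi, and its partner Mcm2, of the replicative helicase and in the same list, changed by 0.28 ± 0.08 (adjusted p = 0.067). In mip120 RNAi 7 of the 29 mitotic genes rose and 12 fell, where 17.6% and 18.9% of all genes did so. Of their partners 5 rose and 8 fell.

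Of 8 head-to-head genes of the germline and piRNA list 5 rose in each mip group. The list was chosen with earlier results of these data known. It holds piwi, which was below 1 FPKM in GFP cells and was included through the mip libraries. The counts and medians of members given here thus depend in part on that inclusion. Over all genes 5.69%, 17.6% and 19.3% rose in mip40, mip120 and mip130 RNAi. In mip120 RNAi 2 members fell and in mip130 RNAi 1 did, where 18.9% and 16.9% of all genes fell. A single partner was called in mip40 RNAi, a fall. With mip120 RNAi 1 partner rose while 2 fell, and with mip130 RNAi 2 did each. The members changed with medians of 0.58, 0.72 and 0.87 in mip40, mip120 and mip130 RNAi, and their partners' medians were -0.02, -0.20 and -0.04. piwi, the nuclear Argonaute protein of the piRNA pathway, starts 401 bp from CG12253 on chromosome 2L. It was at 6.66 and 7.13 FPKM in mip40 RNAi, 12.6 and 12.6 in mip120 RNAi, 17.2 and 19.2 in mip130 RNAi and 0.815 in E2F2 RNAi, against 0.585 and 0.612 in GFP cells. CG12253 was at 8.09 and 5.53 FPKM in mip40 RNAi, 8.32 and 8.66 in mip120 RNAi, 9.02 and 10.0 in mip130 RNAi and 10.7 in E2F2 RNAi, against 6.26 and 4.98 in GFP cells. piwi was high in the mip libraries alone, and CG12253 lay above both GFP libraries in mip120, mip130 and E2F2 RNAi, with rises in mip120 and mip130 RNAi that were each lost without GFP replicate 2 (0.212 and 0.12) and other single libraries. The partners' changes differed by -2.08 ± 0.20, -2.56 ± 0.20 and -2.91 ± 0.20 in the mip groups (adjusted p at most 0.0019) and by 0.65 ± 0.24 in E2F2 RNAi (adjusted p = 0.14).

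Of 9 tRNA synthetase genes 5 rose in mip120 and in mip130 RNAi, where 17.6% and 19.3% of all genes rose, and 4 passed no test in each. Aats-thr (ThrRS) rose by 0.63 ± 0.08 in mip120 RNAi. Its partner Patsas rose by 0.74 ± 0.15, a call lost without mip120 replicate 1 (0.0552) or with quantile normalization. Patsas was at 0.538 and 0.611 FPKM in GFP cells and had to be higher elsewhere to be included, so its rise is not read as a result. Of 12 proteasome genes 1 rose and 3 fell in mip120 RNAi, where 17.6% of all genes rose and 18.9% fell. Of their partners 5 rose and 1 fell in that group. In mip130 RNAi 4 of the 12 and 6 of their partners rose, beside 19.3% of all genes. Of 12 splicing factor genes 1 fell in mip120 and 3 in mip130 RNAi, where 18.9% and 16.9% of all genes fell. SF2 fell by 0.26 ± 0.07 with its partner pad by 0.45 ± 0.08 in mip130 RNAi. That fall of SF2 was lost without GFP replicate 1 (0.0866), mip130 replicate 1 (0.0829) or mip130 replicate 2 (0.0972). Among 18 genes of the transcription machinery, Taf10b rose by 0.65 ± 0.16 while Taf10, a paralog 45 bp away that joins the same class of complexes, fell by 0.55 ± 0.09 in mip130 RNAi (partners' difference -1.19 ± 0.17, adjusted p = 0.0039). The rise of Taf10b was lost without either GFP or either mip130 library (0.055 to 0.0963).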

How the data were processed

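RNA of S2R+ cells was given by the authors as deposited FPKM per transcript in 9 libraries. Per the submitters' processing notes, Bowtie 1.1.1, TopHat2 2.0.12, Cufflinks and Cuffnorm were used; the sources used here do not give the genome build, annotation release or strand setting, so sense and antisense reads could not be told apart, and positions are as in the table. FPKM of annotated transcripts, new isoforms and other overlaps were summed per gene. Genes with at least 1 FPKM in at least 2 libraries entered a limma 3.58.1 model (R 4.3.3) of log2(FPKM + 1) that held the 9 libraries as 5 groups, with a variance trend and Benjamini-Hochberg adjustment over all genes at 0.05. The model has 4 residual degrees of freedom; E2F2 RNAi, with 1 library, borrows the spread of the others. The same fit on the F minus R difference of 7871 neighbouring pairs tested partners against each other. The 38 genes listed on more than 1 strand or chromosome formed no pairs. Errors of changes are SE, and values of both libraries are given in place of an SD. The comparisons share the same 2 GFP libraries. Intervals of shares cover counting of pairs only.

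Named pairs were chosen by rule: per comparison up to 3 with both partners risen, both fallen or opposite, ranked by the smaller change, and up to 3 with the widest difference and the other partner not called; those called alike in all 3 mip groups; dREAM genes; and up to 2 for each list. The rule named 56 pairs. The members and lists were chosen with earlier results of these data known. Promoter sequences and transcript ends were not analysed here.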

Additional observations from a re-analysis of the deposited data

Results flagged for a closer look

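Among the named pairs, 8 genes were called in opposite directions in a pair of RNAi groups, and the difference between the groups passed limma's test over all genes. CG9319 changed by 0.39, 0.47 and 0.48 in mip40, mip120 and mip130 RNAi and by -0.49 in E2F2 RNAi, differences of 0.88, 0.96 and 0.97 (adjusted p = 0.0016, 0.00047 and 0.00061). CG18048, beside the splicing gene SmD2, gave 1.09, 1.18 and 1.12 for the same 3 differences (adjusted p = 0.0024, 0.00074 and 0.0012). Klp67A fell in mip120 and mip130 RNAi and rose in E2F2 RNAi, with differences of -1.63 and -1.56 (adjusted p = 0.00014 and 0.00015), while its partner CG4452 changed by 0.01 in E2F2 RNAi.

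Paf-AHalpha, a subunit of a platelet-activating factor hydrolase, gave -0.88 and -0.78 for mip120 and mip130 minus E2F2 RNAi (adjusted p = 0.00046 and 0.001). CG11593 and Rcd5, partners 47 bp apart, both rose in mip120 RNAi and both fell in E2F2 RNAi, with differences of 0.51 and 0.63 (adjusted p = 0.003 and 0.0012), although both E2F2 calls were lost without either GFP library. CG10863 rose in mip40 RNAi and fell in mip120 and mip130 RNAi, with differences of 1.28 and 0.63 (adjusted p = 4.7e-05 and 0.0014). mip120 itself differed by 1.45 between mip40 and mip120 RNAi and by -1.37 between mip120 and mip130 RNAi (adjusted p = 0.00053 and 0.0024), the target of the dsRNA in 1 of these groups.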

How the results depend on the processing

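CG3505 in mip120 RNAi, which was not followed through the alternative runs, rose with all its transcripts and changed by -0.64 with annotated ones alone. Among the 266 named gene changes that were followed, no called change turned round under any alternative run. Of 197 called changes 115 passed under every one and 82 were lost under at least 1, most often without GFP replicate 2 (61). When libraries were left out in turn, same-direction pairs numbered 0 to 6 in mip40, 42 to 123 in mip120, 31 to 107 in mip130 and 6 to 21 in E2F2 RNAi. Opposite pairs numbered 0 to 2, 16 to 89, 19 to 87 and 0 to 5, and pairs with differing partners 55 to 106, 274 to 480, 256 to 486 and 33 to 101. The percent in the same direction ran over 0 to 100, 57.8 to 72.4, 52.7 to 63.9 and 80.0 to 100. The lowest counts in mip120 RNAi came without mip120 replicate 2 and those in mip130 RNAi without GFP replicate 2.

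With no filter in the fit, mip40 RNAi had 4 same-direction and 2 opposite pairs and E2F2 RNAi 12 same-direction pairs. With only GFP and the compared group, mip40 RNAi had 0, 0 and 53 (same, opposite, differing) and mip130 RNAi 67 and 47 (same, opposite). Annotated transcripts alone gave 1 opposite and 86 differing pairs in mip40 RNAi and 12 same, 1 opposite and 57 differing in E2F2 RNAi. In E2F2 RNAi median-ratio scaling gave 7 opposite and quantile normalization 11 same-direction pairs. Counting only changes of at least 0.5, the same direction held for 69.0% in mip120 and 71.1% in mip130 RNAi. The excess of rises among large changes also raises these shares. A variance trend on the pair's mean level, chosen after seeing the data, gave 136, 498, 529 and 112 differing pairs.

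Replicate numbers name samples only: deviations of like-numbered libraries had r of -0.0363, -0.0397 and 0.0212 between mip40, mip120 and mip130 RNAi and GFP, and of -0.113, -0.135 and 0.0105 for mip40 with mip120, mip40 with mip130 and mip120 with mip130 RNAi. With a replicate block, mip40 RNAi had 3 same and 1 opposite pairs, mip120 RNAi 86 and 66, mip130 RNAi 76 and 62, and E2F2 RNAi 7 and 2 with 39 differing pairs. Apart from the settings that follow from fewer samples or transcripts, the cause of these moves was not tested. Depth is unknown, so no limit of detection can be set.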
